A study of Rattus norvegicus with 10 samples.

Results

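The Hox cluster genes are 23 of the 23188 probesets tested on these arrays. They were taken as every probeset whose platform annotation gives a symbol of the form Hoxa, Hoxb, Hoxc or Hoxd followed by a number, with 1 probeset per gene. The RefSeq gene table for rat (assembly GRCr8) holds 39 genes of that form, so another 16 lack a named probeset here and were not analysed. All 23 transcript accessions in the annotation belong to the RefSeq gene of the same symbol. The series measured RNA from nucleus pulposus cells, the cells of the soft core of the intervertebral disc, taken from male Sprague Dawley rats of 300 g and 3 to 4 months of age. One group of 5 arrays (ShCtrl) held cells given a lentiviral control short hairpin RNA in pLKO.1, and the other group of 5 (ShBNIP3) held cells given lentiviral particles that knock down Bnip3, a mitophagy receptor of the outer mitochondrial membrane. Both groups were therefore transduced and cultured, and RNA was taken 4 days later. The labels do not state which spinal levels the rat discs came from (part of the extraction text describes mouse discs), how many hairpins were used, or whether arrays of a group were separate cultures, so the p-values describe the spread between these arrays, part of which may be technical.

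Hox genes encode homeodomain transcription factors that set position along the body axis. In mammals they lie in 4 clusters, HoxA to HoxD, and the members are numbered by paralog group from 1, expressed furthest forward in the embryo, to 13, expressed towards the tail. Genes of the middle groups pattern the thoracic spine and those of the last groups the lumbar, sacral and tail segments, and adult mesenchymal cells often keep part of the Hox code of the region they came from.

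In the control cells the Hox genes above background came from 3 clusters and none of the HoxD cluster was among them. Hoxa6, Hoxa7, Hoxa11, Hoxa13, Hoxb5, Hoxc8 and Hoxc12 lay above background on all 5 ShCtrl arrays. After Bnip3 knockdown Hoxc12 fell 3.30-fold and Hoxa11 fell 1.90-fold, while Hoxb7 rose from background and the neighbouring genes Hoxa13, Hoxa7, Hoxa6, Hoxc9 and Hoxc8 did not pass the test.

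The knockdown target was checked first. Bnip3 stood between 13.94 and 15.97 on the log2 scale on the ShCtrl arrays and between 10.59 and 12.68 on the ShBNIP3 arrays, without overlap. The log2 difference was -3.21 (SE 0.40, limma adjusted p = 0.00020, exact two-sided permutation p = 0.0079, which no split of 5 and 5 arrays can undercut). Of the 10 arrays, ShCtrl array 4 and ShBNIP3 array 10 correlated least with their own group (mean Pearson r over all tested probesets 0.983 and 0.986, against 0.992 for the other 8). Where leaving out both arrays changed the call of a gene named here, this is stated beside it. Some markers of disc cells were expressed. The aggrecan gene Acan and the collagen gene Col2a1 lay above background on every array. Markers that define notochord-derived nucleus pulposus cells did not: Krt8, Krt18, Krt19, Tbxt (brachyury), Noto, Shh and Foxa2 were at background on all 10 arrays, and of 17 measured markers of the type 5 were above background on all ShCtrl arrays. Of 10 measured markers of the annulus fibrosus and fibroblasts 9 were above background on all ShCtrl arrays. The markers above background were thus not particular to nucleus pulposus cells. Of 10 endothelial and 10 skeletal muscle markers 0 were above background on any array.

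A level was read against the background of its own array, because probes of different genes bind with different strength and their levels cannot be ranked against each other. The background level of an array was set at the 95th percentile of its 23 antigenomic control probesets, and it lay between 6.50 and 6.78 over the arrays. By this rule 7 of 23 Hox genes were above background on every ShCtrl array. Among all named probesets 48.3% were, and among all probesets, named or not, 43.5%. In the ShBNIP3 cells 9 Hox genes were above background on every array, beside 48.2% of named probesets. The remaining Hox genes were 13 that lay above background on no array of either group and Hoxd9, which did so on 2 ShCtrl arrays.

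**Figure D1:**
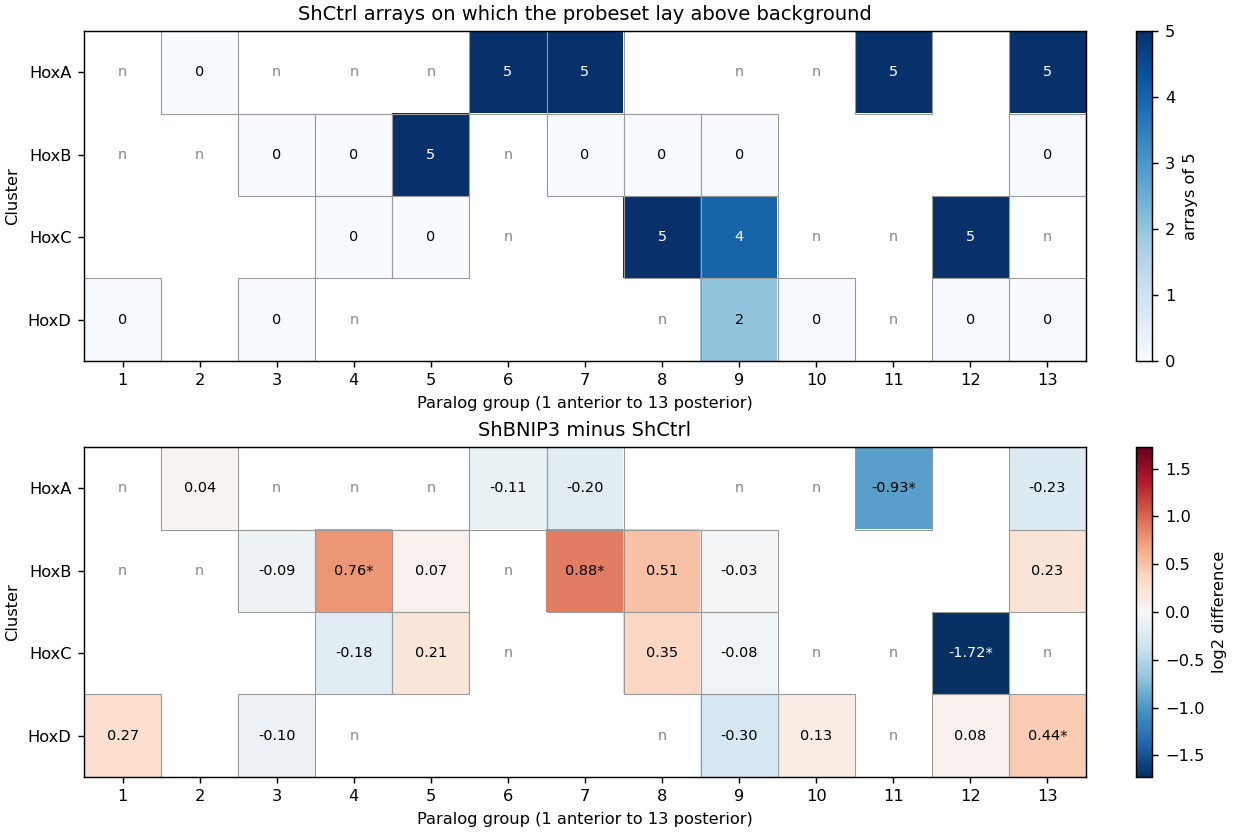
Hox genes by cluster (rows) and paralog group (columns). The upper panel gives the number of ShCtrl arrays, of 5, on which each probeset lay above background, and the lower panel the log2 difference ShBNIP3 minus ShCtrl, with an asterisk for an adjusted p under 0.05. The letter n marks a RefSeq gene with no named probeset, and an empty cell marks a gene that is not in the RefSeq table. Genes on 5 of 5 arrays are found in HoxA, HoxB and HoxC and not in HoxD, and the 2 falls are at Hoxa11 and Hoxc12.

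Along the axis the genes above background were not a continuous block among those measured. Of 8 measured genes of paralog groups 1 to 5, 1 was above background in ShCtrl (Hoxb5). Of 8 genes of groups 6 to 9, 3 were (Hoxa6, Hoxa7 and Hoxc8), and Hoxc9 was above background on 4 of 5 arrays. Of 7 genes of groups 10 to 13, 3 were (Hoxa11, Hoxa13 and Hoxc12), while Hoxb13, Hoxd10, Hoxd12 and Hoxd13 were at background on every array. The same paralog group could thus hold a gene above background and another at background, as for Hoxa13 beside Hoxb13 and Hoxd13, and for Hoxc12 beside Hoxd12.

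The HoxA cluster lies on chromosome 4, and 4 of its 5 measured genes were above background. The identifiers of 4 HoxA probesets, however, belong to transcripts that the array design had not mapped to a chromosome, and that of the other to an unplaced chromosome 4 scaffold, so the HoxA sequences were in a poorly assembled region when the array was made. Hoxa2, a hindbrain and neck gene, had a ShCtrl mean of 4.24 ± 0.22 (SD, n = 5) and was at background throughout. Hoxa6 read 9.68, 9.70, 8.47, 8.87 and 8.56 on ShCtrl arrays 1 to 5, a spread of over 1 log2 unit within the group. Hoxa7 read 8.64, 8.95, 8.66, 7.41 and 8.58, with array 4 far below the others. Hoxa11, a gene of the sacral and limb code, read 10.57, 10.68, 10.45, 9.40 and 10.59. Array 4 again lay below the others, which were within a narrow range. Hoxa13, the last gene of the cluster, active in the tail end and the tips of the limbs, read 7.83, 7.99, 7.80, 6.95 and 8.18.

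The HoxC cluster on chromosome 7 had 2 of 5 measured genes above background on every ShCtrl array. Hoxc12 read 10.24, 10.31, 10.20, 9.04 and 10.41, so the lowest value was that of array 4. Hoxc8, a gene of the thoracic region, read 10.16, 10.19, 9.69, 9.26 and 9.33. Hoxc9, its neighbour, read 7.19, 7.38, 7.13, 6.39 and 7.31 and missed the rule through array 4 alone, where the background level was 6.68. Hoxc4 and Hoxc5, of the neck region, had ShCtrl means of 4.65 and 5.10 and were at background.

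The HoxB cluster on chromosome 10 had 1 of 7 measured genes above background, Hoxb5, at 7.06, 7.51, 7.03, 6.91 and 7.29. It was the gene nearest to the background level among those above it. Hoxb3, Hoxb4, Hoxb7, Hoxb8, Hoxb9 and Hoxb13 had ShCtrl means between 4.39 and 6.19 and were at background on all 5 arrays. Hoxb7 came nearest, with 6.66 on array 1 against a background level of 6.67 there.

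In the HoxD cluster on chromosome 3, which in limb buds patterns the digits, 0 of 6 measured genes passed. Hoxd9 was the closest, with 6.87, 6.37, 6.11, 5.47 and 6.57, above background on arrays 1 and 5. Hoxd1, Hoxd3, Hoxd10, Hoxd12 and Hoxd13 had ShCtrl means of 3.24, 5.31, 3.85, 3.79 and 2.89 and lay below the background level on every array.

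The comparison of ShBNIP3 with ShCtrl asks whether this pattern shifts when Bnip3 is knocked down. Of 23 Hox genes 5 passed an adjusted p of 0.05, and of all probesets 15.5% did. There were 2 falls, Hoxc12 and Hoxa11 (7.87% of all probesets fell), and 3 rises, Hoxb7, Hoxb4 and Hoxd13 (7.61% of all probesets rose). Of all probesets above background on every array of at least 1 group 29.9% passed, 15.2% down and 14.6% up. The 9 Hox genes of that kind held both falls and the rise of Hoxb7, but Hoxb7 was admitted only through the group where it was high, so nothing is read from their count. Groups did not overlap for 4 Hox genes, Hoxc12, Hoxb4, Hoxb7 and Hoxd13, and for 12.9% of all probesets. The median log2 difference was 0.04 over the 23 Hox genes and 0.02 over all probesets. One Hox gene, Hoxc12, changed by at least 2-fold, as did 4.18% of all probesets.

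**Figure D2:**
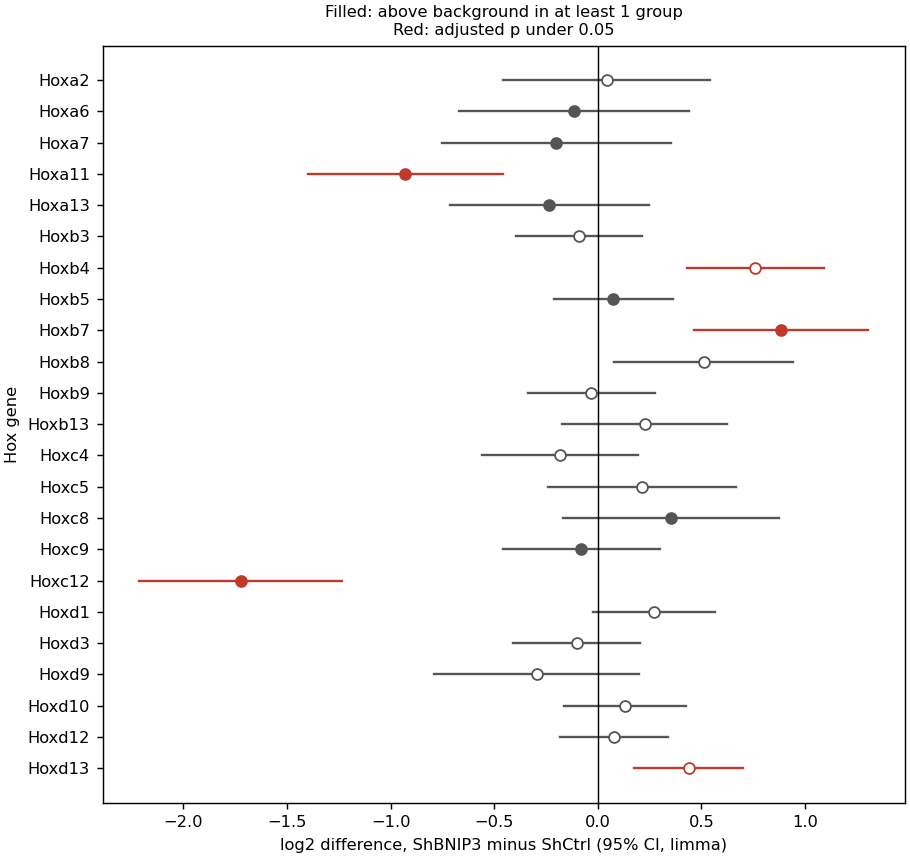
Log2 difference, ShBNIP3 minus ShCtrl, of each of the 23 Hox genes with its 95% confidence interval from limma (5 arrays per group). Filled points are genes above background on every array of at least 1 group, and red marks an adjusted p under 0.05. Hoxc12 (-1.72) and Hoxa11 (-0.93) lie left of 0, and Hoxb7 (0.88), Hoxb4 (0.76) and Hoxd13 (0.44) right of it.

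Hoxc12 fell most. On ShBNIP3 arrays 6 to 10 it read 8.24, 8.39, 8.40, 8.13 and 8.42, all below the lowest ShCtrl value of 9.04. The ShCtrl mean of 10.04 ± 0.57 compared with 8.32 ± 0.13 after knockdown (SD over 5 arrays). The log2 difference was -1.72 (SE 0.23, limma adjusted p = 0.00027), which left 30.3% of the control level. Without ShCtrl array 4 the log2 difference was -1.97 (SE 0.12, limma adjusted p = 4.947e-07).

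Hoxa11 fell next. On the ShBNIP3 arrays it read 9.63, 9.47, 9.23, 9.36 and 9.35. These values lay below 4 ShCtrl arrays and overlapped with array 4, which read 9.40. The mean fell from 10.34 ± 0.53 to 9.41 ± 0.15 (SD over 5 arrays), with a log2 difference of -0.93 (SE 0.22, limma adjusted p = 0.011), which left 52.5% of the control level. Without ShCtrl array 4 the difference was -1.16 (SE 0.12, limma adjusted p = 4.035e-05) and the groups no longer overlapped.

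**Figure D3:**
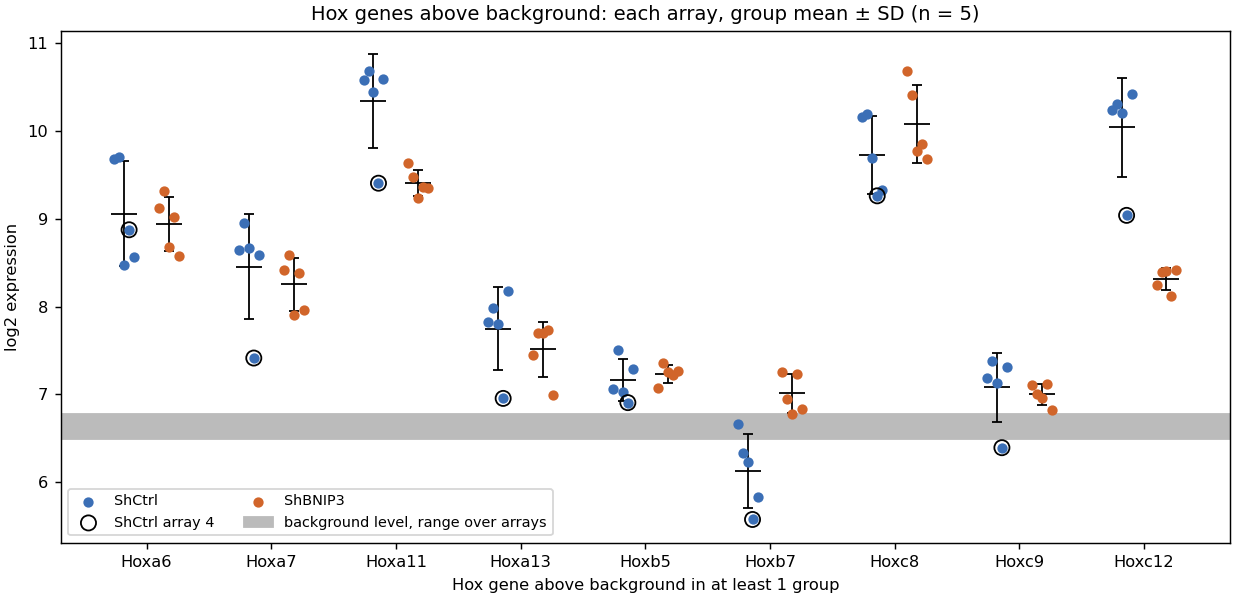
Log2 expression of the 9 Hox genes above background on every array of at least 1 group, with 1 point per array, the group mean and its SD (n = 5), and the range of the background level over the arrays in grey. Hoxc12 sits between 9.04 and 10.41 in ShCtrl and between 8.13 and 8.42 in ShBNIP3, and the circled ShCtrl array 4 is the lowest ShCtrl array for 8 of the 9 genes.

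Hoxb7 rose from background to just above it. It read 7.25, 6.95, 6.78, 7.23 and 6.84 on the ShBNIP3 arrays and at most 6.66 on the ShCtrl arrays. The log2 difference of the means was 0.88 (SE 0.19, limma adjusted p = 0.0079), and against the background level of the ShCtrl arrays the rise was at least 1.29-fold. On ShBNIP3 array 8 the value and the background level both rounded to 6.78, so the gene passed the rule there by a small margin. Hoxb4 read 4.27 to 4.57 in ShCtrl and 4.85 to 5.68 in ShBNIP3 (log2 difference 0.76, SE 0.15, limma adjusted p = 0.0047). Hoxd13 read 2.73 to 3.11 in ShCtrl and 3.16 to 3.51 in ShBNIP3 (log2 difference 0.44, SE 0.12, limma adjusted p = 0.027). Both stayed below the background level on all 10 arrays, so no fold is given for them. Of all probesets above background on no array 2.47% passed the test, and of the 13 Hox genes of that kind 2 did. The difference of Hoxd13 had an adjusted p over 0.05 in 5 of 10 limma fits with 1 array left out (ShCtrl array 1, 2 or 3, or ShBNIP3 array 7 or 8), at most 0.0704.

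With all 10 arrays, the other Hox genes above background had differences with intervals on both sides of 0. Hoxc8 differed by 0.35 (95% confidence interval -0.17 to 0.87), with ShBNIP3 values of 10.68, 10.41, 9.77, 9.85 and 9.68 that overlapped with those of ShCtrl. Hoxa13 differed by -0.23 (-0.71 to 0.25), with 7.44, 7.70, 7.70, 7.74 and 7.00 in ShBNIP3. Hoxa7 differed by -0.20 (-0.75 to 0.35), with 8.42, 8.59, 7.91, 8.38 and 7.97. Hoxa6 differed by -0.11 (-0.67 to 0.44) and Hoxc9 by -0.08 (-0.46 to 0.30). Hoxb5 differed by 0.07 (-0.21 to 0.36), the narrowest of these intervals. A change of 2-fold or more lay outside the interval of each of these 6 genes. Without ShCtrl array 4, Hoxa7 differed by -0.46 (SE 0.16, limma adjusted p = 0.074) and Hoxa13 by -0.43 (SE 0.17, limma adjusted p = 0.10). Hoxc9 then differed by -0.25 (limma adjusted p = 0.18), Hoxa6 by -0.16, Hoxc8 by 0.24 and Hoxb5 by 0.01. None of the 6 passed in that fit, but the size of these differences depended on that array. Hoxb8, at background on all arrays, had a log2 difference of 0.51 (SE 0.20, limma adjusted p = 0.11). Leaving out ShBNIP3 array 10 gave 0.62 (limma adjusted p = 0.047). The remaining 11 genes, Hoxa2, Hoxb3, Hoxb9, Hoxb13, Hoxc4, Hoxc5, Hoxd1, Hoxd3, Hoxd9, Hoxd10 and Hoxd12, differed by -0.30 to 0.27 and did not pass the test.

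ShCtrl array 4 was low in Hox genes as a group. On it all 9 Hox genes above background in at least 1 group lay below the mean of the other 4 ShCtrl arrays, by a median of -0.86, while the median over all probesets of that kind was -0.12. Hoxa7 lay -1.30 from the other arrays there, Hoxc12 -1.25 and Hoxa11 -1.17, whereas Hoxa6 lay -0.23 and Hoxb5 -0.32 from them. Bnip3 itself was 1.71 above the other ShCtrl arrays on array 4, so that array joined the highest Bnip3 level with the lowest Hoxc12 level of its group. On ShBNIP3 array 10, 7 of the 9 genes lay below the other 4 arrays of that group, by a median over the 9 of -0.23, and Hoxa13 by most, -0.65. Without both arrays the same 5 Hox genes passed, with Hoxa11 at -1.15, Hoxb7 at 0.79, Hoxb4 at 0.81 and Hoxd13 at 0.49.

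**Figure D4:**
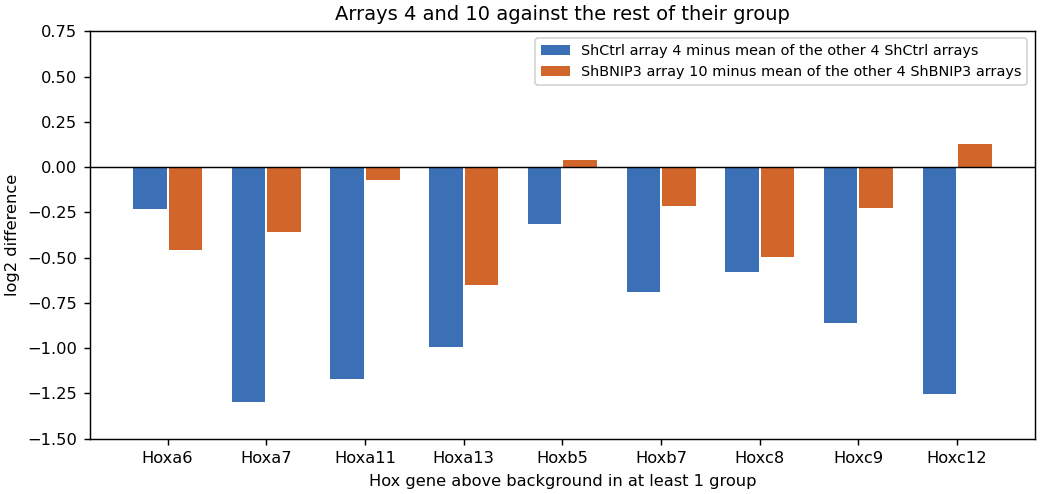
Log2 difference of ShCtrl array 4 (blue) and of ShBNIP3 array 10 (orange) from the mean of the other 4 arrays of the same group, for the 9 Hox genes above background in at least 1 group. All 9 blue bars point down, from -0.23 at Hoxa6 to -1.30 at Hoxa7.

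Because array 4 was low in several Hox genes at once, genes of a cluster were also compared within each array, which shows whether they changed unequally. There were 10 pairs of Hox genes in the same cluster above background on every array of at least 1 group, and p-values were adjusted over these 10 pairs. Hoxc12 minus Hoxc9 went from 2.96 ± 0.19 on the ShCtrl arrays to 1.32 ± 0.24 on the ShBNIP3 arrays (SD, n = 5 each, as for the pairs that follow; exact two-sided permutation p = 0.0079, adjusted 0.020). The groups were far apart, with 2.64 the lowest ShCtrl value and 1.60 the highest ShBNIP3 value. Hoxc9, however, entered the set through ShBNIP3, as it was above background on 4 of 5 ShCtrl arrays. Its mean lay 0.44 above the background level in ShCtrl and 0.30 above it in ShBNIP3. So near to background, a fall of Hoxc9 may be understated. Hoxc12 minus Hoxc8 went from 0.31 ± 0.50 to -1.76 ± 0.48 (exact permutation p = 0.0079, adjusted 0.020). Hoxa11 minus Hoxa7 went from 1.89 ± 0.13 to 1.16 ± 0.22, again without overlap (exact permutation p = 0.0079, adjusted 0.020). In this comparison array 4 lay among the other ShCtrl arrays. It was still the lowest ShCtrl array for Hoxc12 minus Hoxc9 (2.64), Hoxc12 minus Hoxc8 (-0.22) and Hoxa11 minus Hoxa6 (0.53). Hoxa13 minus Hoxa11 went from -2.59 ± 0.15 to -1.89 ± 0.36 (exact permutation p = 0.0079, adjusted 0.020), and Hoxa11 minus Hoxa6 from 1.28 ± 0.68 to 0.47 ± 0.23 (exact permutation p = 0.024, adjusted 0.048).

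Hoxa11 thus fell relative to each of the 3 other HoxA genes above background, and Hoxc12 relative to Hoxc8 and Hoxc9. These pairs use the same arrays and values in which limma had already called Hoxa11 and Hoxc12. Pairs that share a gene are also not independent. The pairs therefore describe the pattern and are not separate evidence for it. The 4 pairs that hold none of Hoxa11, Hoxc12 and Hoxb7 did not pass. Hoxa13 minus Hoxa7 changed by -0.03 (SE 0.18, exact permutation p = 0.87, adjusted 0.87), Hoxa7 minus Hoxa6 by -0.09 (SE 0.32, exact permutation p = 0.83, adjusted 0.87), Hoxa13 minus Hoxa6 by -0.12 (SE 0.35, exact permutation p = 0.75, adjusted 0.87) and Hoxc9 minus Hoxc8 by -0.43 (SE 0.24, exact permutation p = 0.14, adjusted 0.20). In the remaining pair, Hoxb7 minus Hoxb5 changed by 0.81 (SE 0.23, exact permutation p = 0.032, adjusted 0.053), a value taken against a gene at background in ShCtrl that entered the set through ShBNIP3.

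**Figure D5:**
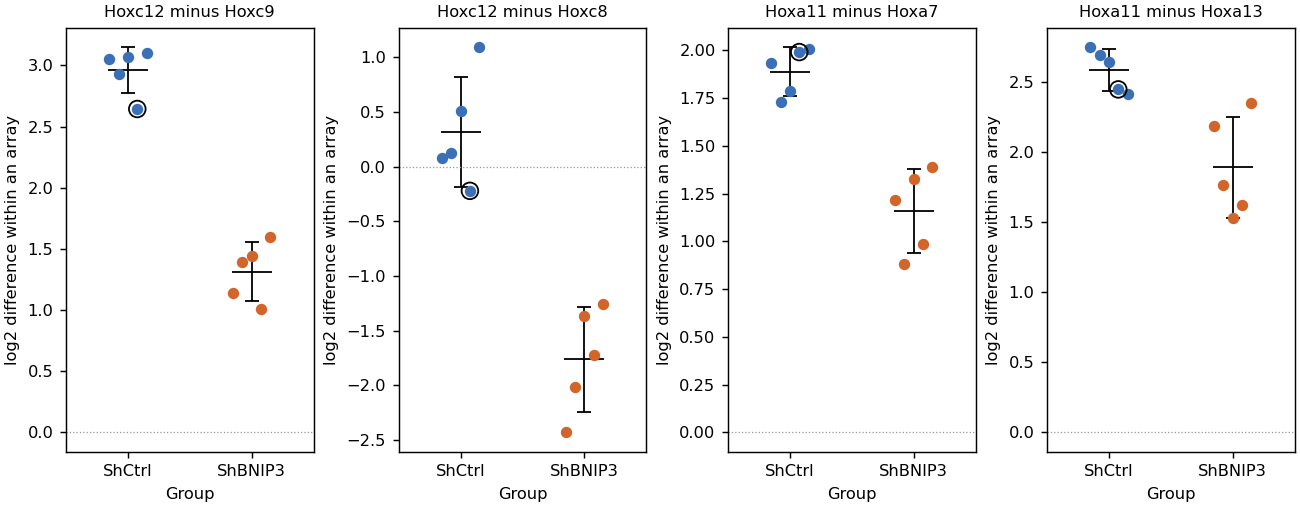
Difference between 2 Hox genes of a cluster on the same array (log2), by group, with 1 point per array, the mean and its SD (n = 5), and ShCtrl array 4 circled. In all 4 pairs the ShBNIP3 arrays lie below the ShCtrl arrays without overlap (the pair of Hoxa11 and Hoxa13 is drawn as Hoxa11 minus Hoxa13). For Hoxa11 minus Hoxa7, array 4 sits inside the range of the other ShCtrl arrays.

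Sequence upstream of the start was available for 12 of the 23 genes in the RefSeq promoter table (GRCr8), Hoxa11 among them. The 250 bases before the start of Hoxa11 are shown beside those of Hoxa7 and Hoxa13, its nearest measured neighbours on either side, against both of which it fell. Each is written 5′ to 3′ on the minus strand, Hoxa7 from chr4:82648242-82648491, Hoxa11 from chr4:82676802-82677051 and Hoxa13 from chr4:82691702-82691951. Capitals mark the GC box GGGCGG and the hypoxia response core ACGTG on either strand (the E-box CACGTG overlaps the latter).
Hoxa7: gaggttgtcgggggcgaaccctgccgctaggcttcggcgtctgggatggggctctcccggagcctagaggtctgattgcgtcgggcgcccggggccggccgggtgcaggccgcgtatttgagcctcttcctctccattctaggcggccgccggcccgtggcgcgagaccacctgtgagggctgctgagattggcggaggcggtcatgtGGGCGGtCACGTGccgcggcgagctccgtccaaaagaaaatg
Hoxa11: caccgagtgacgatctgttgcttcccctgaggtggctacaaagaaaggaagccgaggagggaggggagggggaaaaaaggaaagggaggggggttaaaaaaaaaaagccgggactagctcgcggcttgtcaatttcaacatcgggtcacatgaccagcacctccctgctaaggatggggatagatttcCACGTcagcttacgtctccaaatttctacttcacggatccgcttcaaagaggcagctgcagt
Hoxa13: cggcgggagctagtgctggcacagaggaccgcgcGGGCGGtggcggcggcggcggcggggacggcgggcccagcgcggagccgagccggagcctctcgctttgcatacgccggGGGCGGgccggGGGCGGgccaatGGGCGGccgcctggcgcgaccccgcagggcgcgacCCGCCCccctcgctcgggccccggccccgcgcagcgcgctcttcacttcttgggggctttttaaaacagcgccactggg
The Hoxa11 window held 0 GC boxes and 1 ACGTG match, the Hoxa7 window 1 GC box and 2 overlapping ACGTG matches within 1 E-box, and the Hoxa13 window 5 GC boxes and 0 ACGTG matches. Of 33465 promoter windows of this length, 30.5% held a GC box, 16.6% ACGTG and 5.59% the E-box. GC content was 52.4% for Hoxa11, 68.8% for Hoxa7 and 78.8% for Hoxa13, with a median of 51.2% over all windows. These are descriptions of the letters in the windows, and the arrays did not measure binding there.

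Genes beside the clusters did not share one direction. The 2 nearest genes with a named probeset at either end of each cluster made 16 genes, of which 13 were above background in ShCtrl. The test was passed by 5, 2 up and 3 down, all of them among these 13. Of all probesets 15.5% passed, and of those above background 29.9%. Without ShCtrl array 4 and ShBNIP3 array 10, 8 of the 16 passed, again all among the 13. In that fit 19.9% of all probesets passed and 36.8% of those above background. Nothing particular to the flanks is read from these counts. At the posterior end of HoxC, Atp5mc2, a subunit of the ATP synthase ring, had a log2 fold change of -1.46 (SE 0.11, limma adjusted p = 2.555e-06), and Calcoco1, which lies nearer to the cluster, differed by -0.22 (SE 0.16, limma adjusted p = 0.43). At the posterior end of HoxB, Atp5mc1, for the same ring, fell by 0.98 (SE 0.15, limma adjusted p = 0.00086) and the ubiquitin-conjugating enzyme Ube2z rose by 0.44 (limma adjusted p = 0.021). At its anterior end the sorting nexin Snx11 rose by 0.68 (limma adjusted p = 0.0032). Next to Hoxa13, the homeobox gene Evx1 was at background on all arrays and Hibadh, of valine breakdown, fell by 0.45 (limma adjusted p = 0.045). The 4 genes beside HoxD, Lnpk, Atf2, Mtx2 and Hnrnpa3, differed by -0.38 to 0.37 and did not pass the test. Without arrays 4 and 10, Lnpk rose by 0.47 (limma adjusted p = 0.046) and Atf2 fell by 0.45 (limma adjusted p = 0.020). Cbx5, a heterochromatin protein gene at the anterior end of HoxC, went from 0.40 (limma adjusted p = 0.19) to 0.45 (limma adjusted p = 0.015). Evx1 was also the single measured entry of a list of 20 names for Evx genes and noncoding RNAs of the clusters.

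The counts in the lists that follow stand beside 7.61% of all probesets up and 7.87% down, and 14.6% up and 15.2% down among those above background, and nothing particular to a list is read from them. TALE homeodomain proteins bind DNA together with Hox proteins. Of 7 measured, 4 above background in ShCtrl, 1 rose and 0 fell. Meis1 read 11.08, 11.17, 10.91, 11.38 and 11.34 in ShCtrl and 11.33, 11.65, 12.02, 12.07 and 11.99 in ShBNIP3 (log2 difference 0.64, SE 0.16, limma adjusted p = 0.017), with an overlap at ShBNIP3 array 6. Pbx2 and Pbx3, the partners of Meis proteins, differed by -0.44 and -0.65 (limma adjusted p = 0.085 and 0.14). Without arrays 4 and 10 both fell, by 0.58 and 0.57 (limma adjusted p = 0.021 and 0.027). The median of the list was 0.12.

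Inputs that act on Hox genes in the embryo were taken as Cdx factors, retinoic acid signalling, Gdf11 and its receptor, and Fgf8. The list also held genes that limit retinoic acid (Cyp26a1, Cyp26b1 and Dhrs3), so its counts and median mix opposed effects. Of 20 measured, 7 above background in ShCtrl, 2 rose and 2 fell, with a median log2 difference of -0.06. The retinoic acid receptors Rara and Rarg both fell, Rara by 0.76 (SE 0.11, limma adjusted p = 0.00075) and Rarg by 0.38 (SE 0.12, limma adjusted p = 0.043). Rara read 11.30 to 11.63 in ShCtrl and 10.57 to 10.80 in ShBNIP3, without overlap. The receptor Tgfbr1 rose by 1.19 (SE 0.14, limma adjusted p = 0.00012), and Gdf11, a ligand that sets the trunk to tail transition, rose within the background range. Cdx2 and Cdx4 were at background. Without arrays 4 and 10, 6 of the 20 passed, with falls of the retinoid receptor Rxra and of Aldh1a3, which makes retinoic acid, by 0.54 and 0.64 (limma adjusted p = 0.0055 and 0.031).

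Chromatin regulators of the clusters were taken as a Polycomb list and a Trithorax list. Of 25 Polycomb genes, which keep Hox genes silent and of which 23 were above background in ShCtrl, 3 rose and 2 fell (median -0.13), and 7 passed without arrays 4 and 10. Cbx6 fell by 1.59 (SE 0.27, limma adjusted p = 0.0015), from 8.45 to 9.88 in ShCtrl to 7.39 to 8.21 in ShBNIP3, and array 4 was the lowest ShCtrl array here too. Phf1 fell by 0.55, and Mtf2, Yaf2 and Pcgf3 rose by 0.67, 0.66 and 0.52. Ezh2, which places the silencing mark, differed by -0.27 (limma adjusted p = 0.38). The Trithorax list held genes of Trithorax and H3K27 demethylation and other chromatin regulators, Kdm5a, Kdm5b, Ctcf and Rad21 among them, so not all its members activate. Of its 12 measured genes, all 12 above background, 0 rose and 2 fell (median 0.01), and 3 fell without arrays 4 and 10. Kdm6b, which removes that mark, fell by 1.29 (SE 0.18, limma adjusted p = 0.00034), from 10.29 to 10.83 in ShCtrl to 8.81 to 9.76 in ShBNIP3, and Wdr5 by 0.45 (limma adjusted p = 0.030). On array 4 Kdm6b was the highest of its group.

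Other position and limb regulators were mostly at background. Of 26 measured, 17 were above background on no array, 0 rose and 2 fell (median -0.05). Shox2, a homeobox gene of limb and skeletal mesenchyme, fell by 1.07 (SE 0.22, limma adjusted p = 0.0051), with 9.37 to 10.57 in ShCtrl and 8.66 to 9.55 in ShBNIP3, an overlap between array 4 and array 10. Without these arrays it fell by 1.38 (limma adjusted p = 5.24e-05). Lhx2 fell within the background range. Pax9, a gene of the sclerotome from which the outer disc forms, differed by -0.41 (SE 0.19, limma adjusted p = 0.19), and without arrays 4 and 10 it fell by 0.57 (limma adjusted p = 0.026). Prrx1, of limb and facial mesenchyme, differed by 0.17 (limma adjusted p = 0.33).

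Some markers of disc cells and of other cells differed between the groups. Their counts stand beside the shares of all probesets given above, and nothing particular to a cell type is read from them. Of 10 endothelial markers 0 passed. Of the 17 nucleus pulposus markers 2 fell and 1 rose, with summed levels of 16.53 to 18.15 in ShCtrl and 16.58 to 17.85 in ShBNIP3. Levels were summed before log2 was taken, so the highest members weigh most. For this list these were Grem1 and Slc2a1 (ShCtrl means 16.30 and 15.13). In the lists below they were Pdgfrb (15.34) for pericytes, and Col1a1, Col1a2 and Thbs2 (18.52, 18.53 and 18.07) for the annulus fibrosus. The carbonic anhydrase gene Car3 fell by 1.29 (limma adjusted p = 0.0048), Col2a1 fell by 0.67 (limma adjusted p = 0.013), and the N-cadherin gene Cdh2 rose from background to above it (limma adjusted p = 0.00052). Acan differed by -0.90 (limma adjusted p = 0.19) and, like Car12, passed as lower without arrays 4 and 10. The summed level of 9 smooth muscle and pericyte markers lay between 15.61 and 16.30 on the log2 scale in ShCtrl and between 14.75 and 15.07 in ShBNIP3, with 3 of 9 down (Des, Cspg4 and Pdgfrb), 1 up (Mcam) and Myh11 and Notch3 at background. Myh11 passed as higher, still at background, without arrays 4 and 10. That of 11 macrophage and leukocyte markers lay between 11.02 and 11.76 and between 11.96 and 13.24, with 9 of the 11 at background on every array, Ptprc and Csf1r among them. Of the 3 that rose, Cd53 was one of these 9, Cd68 was above background on 4 ShCtrl arrays, and Cd14 alone read 10.83 to 11.57 and 11.73 to 13.14 and so made up most of the sum. That of 10 annulus fibrosus and fibroblast markers lay between 20.30 and 20.43 and between 19.90 and 20.28, with 4 down and Tnmd at background. The log2 differences of these 4 were -2.37 for Fmod (limma adjusted p = 0.00086), -0.71 for Col3a1, -0.40 for Col1a1 and -0.37 for Col1a2. Without arrays 4 and 10, 4 were again down, but Thbs2 passed as lower and Col1a2 no longer passed. Bulk RNA cannot tell fewer cells of a type from less RNA per cell, and the part of these shifts in the Hox differences was not tested. Of the 10 skeletal muscle markers 1 rose, Myh2, within the background range, and 0 passed without arrays 4 and 10. Of 6 Schwann and neural markers 1 fell (S100b), with summed levels of 9.55 to 10.09 and 8.79 to 9.82. Of 8 markers of bone and hypertrophic cartilage 0 passed, with 9.93 to 11.38 and 10.22 to 11.71.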

How the data were processed

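Total RNA of 10 samples was labelled with the GeneChip WT Plus kit, per the labels' protocols. The deposited values are log2 expression per probeset, normalized by the authors with sst-rma, per the labels. Transcriptome Analysis Console is the software listed in the submitters' processing notes, and no version or genome build is given in the sources used here. The number of arrays limits the precision. Groups were taken from the titles. The 1646 control probesets were left out, which leaves 23188, of which 15049 carry 1 symbol, 0 several and 8139 none, and differences (ShBNIP3 minus ShCtrl) were tested over all of them with limma 3.58.1 in R 4.3.3 (lmFit and eBayes), with Benjamini-Hochberg adjustment over all probesets and a threshold of 0.05. Every limma adjusted p is from such a fit. For gene lists the probeset with the highest mean was used per gene. Within-array pairs were tested with exact permutation tests over arrays (scipy 1.17.1). Every Hox probeset was accounted for. Named with values were the Hox genes past the threshold or above background. In each other list members past the threshold were named, at most 6, and for some of these only the direction is given. Pbx2, Pbx3, Pax9, Prrx1, Ezh2, Acan, Car12, Thbs2, Myh11, Rxra, Aldh1a3, Lnpk, Atf2, Cbx5 and Hoxb8, which did not pass the threshold with all arrays, were singled out after their values were seen. The members and the lists were chosen with earlier results of these data known. The limma script was tested on simulated data. Alternatives were leaving out arrays, other variance and array weighting, quantile normalization, and filters on and definitions of background.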

Additional observations from a re-analysis of the deposited data

Results flagged for a closer look

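Among 48 sets of 5 arrays (Bnip3 and the 23 Hox genes in each group), 4 held a value set apart from the other 4 arrays by Dixon's criterion, which flags about 1 in 20 such sets by chance, and all 4 were low values on ShCtrl array 4. Hoxa7 read 7.41 there against 8.58 to 8.95 on the other ShCtrl arrays, and Hoxa11 read 9.40 against 10.45 to 10.68. Hoxc9 read 6.39 against 7.13 to 7.38, and Hoxc12 read 9.04 against 10.20 to 10.41. The part that this array's deviation plays was not tested beyond the fits without it, in which the log2 falls of Hoxc12 and Hoxa11 were -1.97 and -1.16.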

How the results depend on the processing

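Hoxc12, Hoxa11 and Hoxb7 kept their direction and an adjusted p under 0.05 in all 15 alternative limma fits, and Hoxb4 in the 14 that kept its probeset, with log2 differences over the fits that left out 1 array of -1.97 to -1.63, -1.16 to -0.84, 0.75 to 1.02 and 0.62 to 0.83. The number of Hox genes that changed was 3 when probesets above background in neither group were left out, since Hoxb4 and Hoxd13 are then not tested, and 4 to 6 with 1 array left out. Hoxa6, which did not pass the test, ranged from -0.26 to 0.048 and turned positive without ShCtrl array 1 (0.042) or array 2 (0.048). Over all probesets the count was 2746 to 3960 with 1 array left out, in place of 3590. The number of Hox genes above background was 6 to 8 in ShCtrl and 6 to 9 in ShBNIP3 under the other definitions of background. Counts in short lists moved, as for TALE cofactors from 1 to 3 without arrays 4 and 10. With 1 array left out, Cdx and retinoic acid inputs went from 4 to between 2 and 6. Both the Trithorax list and positional regulators then went from 2 to between 1 and 3. No paired analysis was possible because the labels do not state whether arrays of the 2 groups were paired. Values near background limit what can be said of Hoxb4, Hoxd13 and the other genes below it.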
